A study of Mus musculus with 6 samples.

Results

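The collagen and laminin chain genes of the choroid plexus, the tissue inside the brain ventricles that makes cerebrospinal fluid, were compared between aged and young mice. The members were the genes whose symbol names a collagen chain or a laminin chain, together with the nidogens Nid1 and Nid2, perlecan (Hspg2) and agrin (Agrn). The rule reads the symbol alone and uses no measured values, though it was chosen with earlier results of these data known. The rule found 56 genes, measured by 109 probe sets, among 18193 genes on the array with 34945 probe sets named for 1 gene. The collagen genes Col6a6 and Col28a1 had no probe set named for them alone and were not analysed here.

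The plexuses came from 6 male CD1 mice, an outbred stock, with no transgene or treatment named in the labels. The aged group held 3 mice of 18 months and the young group 3 mice of 2 months, called aged and young mice here, each mouse on 1 Affymetrix array as a biological replicate. Whole plexus was used, so that epithelium, the connective tissue core (stroma) and blood vessels are measured together. In such bulk samples, fewer cells of a type and less RNA per cell cannot be told apart.

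A collagen molecule winds 3 chains into a triple helix. Fibrillar collagens (types I, III and V) are cut at their ends outside the cell and pack into the fibrils of connective tissue, which fibroblasts make. Basement membranes are the thin sheets under epithelia and around vessels, built from a network of collagen IV and a network of laminins, each laminin an α, a β and a γ chain, which nidogens and the heparan sulfate proteoglycans perlecan and agrin tie together. In the plexus such sheets lie beneath the epithelium and around the fenestrated capillaries.

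Of the 56 members, 37 had a mean log2 intensity at or above the filter of 4.92 and were tested, and 19 lay under it. The fit with limma, adjusted over all 12681 genes tested, called 0 members at an adjusted p under 0.05, where the background over all genes was 0%. The lowest adjusted p of a member was 0.562. At an unadjusted p under 0.05 there were 6 members, 16.2% of the 37, against a background of 7.05% of all genes tested. Of these, 4 were higher at 18 months (background 4.02%) and 2 were lower (background 3.03%). The values of the ages did not overlap for 8 members, 21.6% of the 37, against a background of 13.3% of all genes. Without mouse 1 of the 2-month group the unadjusted count was 2, and without mouse 2 of that group it was 3. The share over all genes was not taken for these fits. The members' median difference, 18 months minus 2 months on the log2 scale, was -0.09 with 24 of 37 below 0, and over all genes tested the median was 0.0032 with 49.6% below 0. Since members of a class pass or miss the filter by their mean over all 6 mice, these counts describe the 37 that passed and not all 56. Lama4, among the 4 higher, and Lama4 and Lamc3, among the 8 whose ages did not overlap, passed through the aged mice, with a mean under the filter in the young mice, so that they had to differ and lend no support to the counts.

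**Figure D1:**
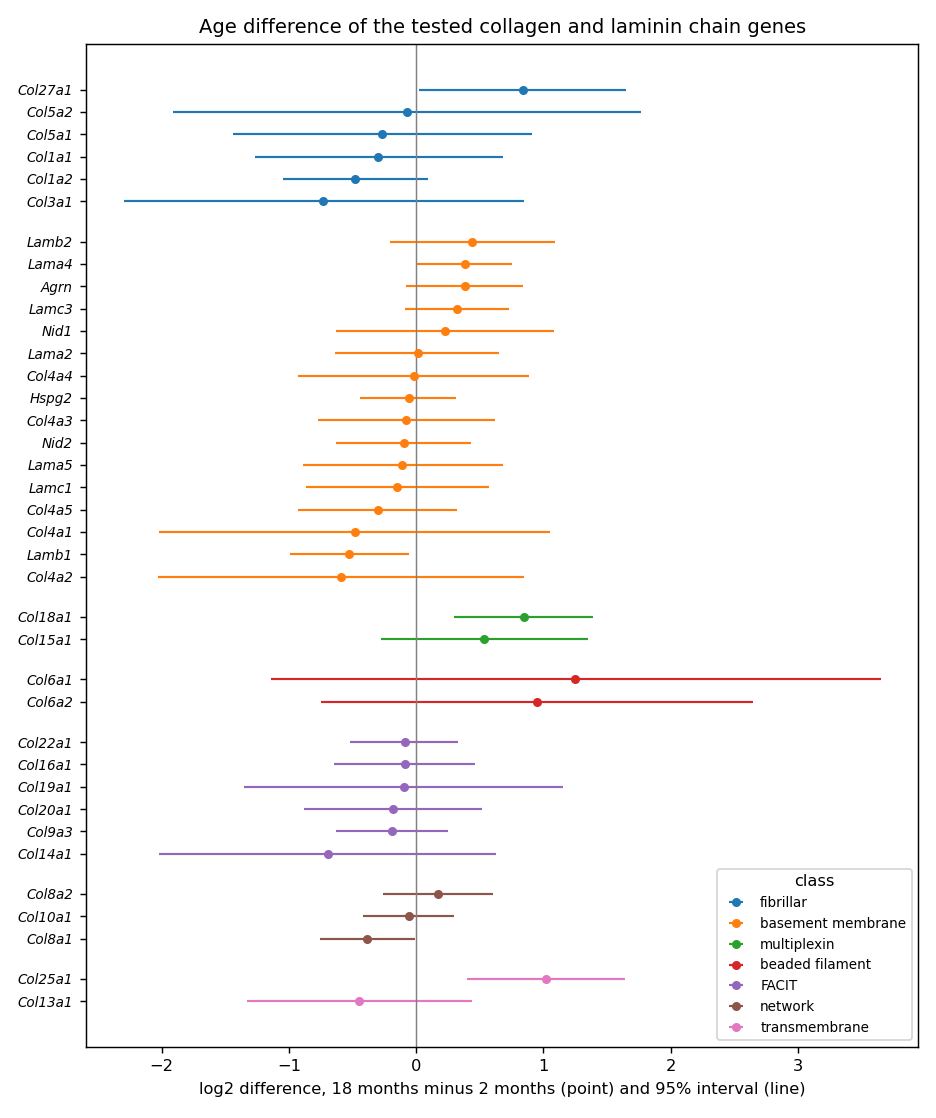
Difference in log2 intensity between the ages (18 months minus 2 months, x axis) for the 37 tested members, grouped by class, with the 95% interval of the limma fit. The intervals of Col18a1 (0.30 to 1.39) and Col25a1 (0.40 to 1.64) lie farthest above 0, those of Lamb1 (-0.99 to -0.06) and Col8a1 (-0.76 to -0.01) lie just below it, and those of Col6a1, Col5a2 and Col3a1 are wide.

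The fibrillar class had 11 genes, of which 6 passed the filter. Of the 6, 5 were lower and 1 was higher at 18 months, with a median difference of -0.28. This median rested on single mice, being 0.01 without mouse 1 of the 18-month group and 0.05 without mouse 3 of the 2-month group. The 5 genes under the filter had means between 2.57 (Col24a1) and 4.73 (Col2a1). For scale, 27 probe sets on the array read bacterial transcripts as controls, and the brightest averaged 4.51.

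Type I collagen, the main fibril collagen of connective tissue, is made of α1 chains from Col1a1 and α2 chains from Col1a2. Col1a2 had log2 intensities of 8.14, 8.61 and 8.92 in the aged mice and 8.94, 9.21 and 8.96 in the young mice. All 3 aged mice lay below all 3 young mice, by as little as 0.02 between the nearest pair. The difference was -0.48 ± 0.24 (SE), a 1.40-fold lower level, which did not pass the test (limma adjusted p = 0.747). Its second probe set differed by -0.44 with overlapping ages. Col1a1 had 6.63, 6.39 and 7.60 in the aged mice and 6.61, 7.17 and 7.72 in the young mice. The 2 ages overlapped, and the difference of -0.30 ± 0.41 (SE) had a 95% interval from -1.27 to 0.68 (limma adjusted p = 0.908).

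Col3a1 encodes type III collagen, which shares fibrils with type I in soft tissue. Its log2 intensity was 4.44, 5.45 and 7.19 at 18 months, a mean of 5.70 ± 1.39 (SD, n = 3), and 6.05, 6.70 and 6.52 at 2 months, a mean of 6.42 ± 0.34 (SD, n = 3). The spread among the aged mice was larger than the difference of -0.73 ± 0.66 (SE; limma adjusted p = 0.853). Without mouse 3 of the 18-month group, the highest of the 6, the difference was -1.48, and without mouse 1 of that group it was -0.10. The chains of type V collagen, which sets fibril width, showed a like spread. Col5a1 had 5.73, 7.33 and 6.42 in the aged mice and 6.26, 6.50 and 7.52 in the young mice, with a difference of -0.27 ± 0.49 (SE). Col5a2 had 3.65, 6.42 and 5.31 in the aged mice and 5.04, 4.35 and 6.20 in the young mice, with a difference of -0.07 ± 0.77 (SE). In both genes the ages overlapped, and both were above 0 without mouse 1 of the 18-month group (0.11 and 0.67).

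Col27a1, a fibrillar collagen known from cartilage, was the member of the class measured in the other direction. It had 6.67, 6.77 and 7.82 in the aged mice and 6.29, 6.48 and 5.99 in the young mice. The ages did not overlap, with the largest distance set by mouse 3 of the 18-month group. The difference was 0.84 ± 0.34 (SE), 1.79-fold, with a limma adjusted p of 0.706, and it was 0.47 without that mouse. A second probe set of Col27a1 did not show it, with 5.99, 6.89 and 6.23 in the aged mice and 5.50, 7.48 and 6.45 in the young mice, a difference of -0.10.

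The upstream sequences of the 2 fibril genes with the most negative differences are shown because type I and type III collagen are usually made together. They are the 250 bases before the annotated start, taken from RefSeq for build GRCm38.p6 and printed 5′ to 3′ on the gene's strand, Col1a2 from chr6:4505368-4505617 on the + strand and Col3a1 from chr1:45311288-45311537 on the + strand. Capitals mark matches, on either strand, to 3 general promoter motifs. The first is the CCAAT box, spelled as its name. The GC box was searched as GGGCGG. The TATA box was searched as TATAAA. No matches overlapped in the windows printed.
Col1a2: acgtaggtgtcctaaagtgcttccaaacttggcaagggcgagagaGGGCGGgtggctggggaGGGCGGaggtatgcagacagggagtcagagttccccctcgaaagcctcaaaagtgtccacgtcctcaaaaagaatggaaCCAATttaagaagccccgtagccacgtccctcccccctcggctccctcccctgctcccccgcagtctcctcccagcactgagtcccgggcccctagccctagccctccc
Col3a1: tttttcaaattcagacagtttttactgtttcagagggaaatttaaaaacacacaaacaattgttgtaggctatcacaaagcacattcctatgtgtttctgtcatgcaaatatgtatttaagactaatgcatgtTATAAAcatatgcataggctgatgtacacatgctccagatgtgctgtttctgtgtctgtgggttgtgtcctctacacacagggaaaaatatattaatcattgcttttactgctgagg
Col1a2 had 1 CCAAT and 2 GC box matches and no TATAAA, and Col3a1 had 1 TATAAA and neither of the others. Among the 46 windows found for 41 of the 56 members, 32.6% held CCAAT against 33.8% of all 32851 windows of this length, 58.7% held GGGCGG against 32.7%, and 10.9% held TATAAA against 12.4%. A match is a description of these letters and not a bound site.

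Of 20 basement membrane genes, 16 passed the filter. Of the 16, 6 were higher and 10 lower at 18 months, with a median difference of -0.07 against -0.28 for the fibrillar chains. Leaving out mouse 1 of the 18-month group turned the median to 0.15. Leaving out mouse 2 of that group gave -0.13, and leaving out mouse 2 of the 2-month group gave -0.01. Col4a6, Lama1, Lama3 and Lamb3 lay under the filter, with means from 3.80 (Col4a6) to 4.77 (Lamb3).

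The median deviation of a class in a mouse, meaning each gene's log2 intensity minus that gene's mean over the 6 mice, sets the classes side by side. For the fibrillar chains it was -0.77, -0.04 and 0.36 in the aged mice and -0.24, 0.02 and 0.58 in the young mice. For the basement membrane chains it was -0.03, 0.01 and 0.04 in the aged mice and 0.01, -0.10 and 0.03 in the young mice. The pooled SD of these medians within an age was 0.505 for the fibrillar and 0.0558 for the basement membrane chains, and in neither class did the ages separate. The small value is that of a median over genes that lay on both sides of 0 in each mouse. For the 5 collagen IV chains within the class the median deviation was -0.85, 0.14 and 0.29 in the aged mice and 0.26, -0.24 and 0.54 in the young mice, with a pooled SD of 0.521, close to that of the fibrillar chains. The number of genes behind each median differs, 6 against 16, and the difference between the classes was not tested, since genes of a class are not replicates.

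**Figure D2:**
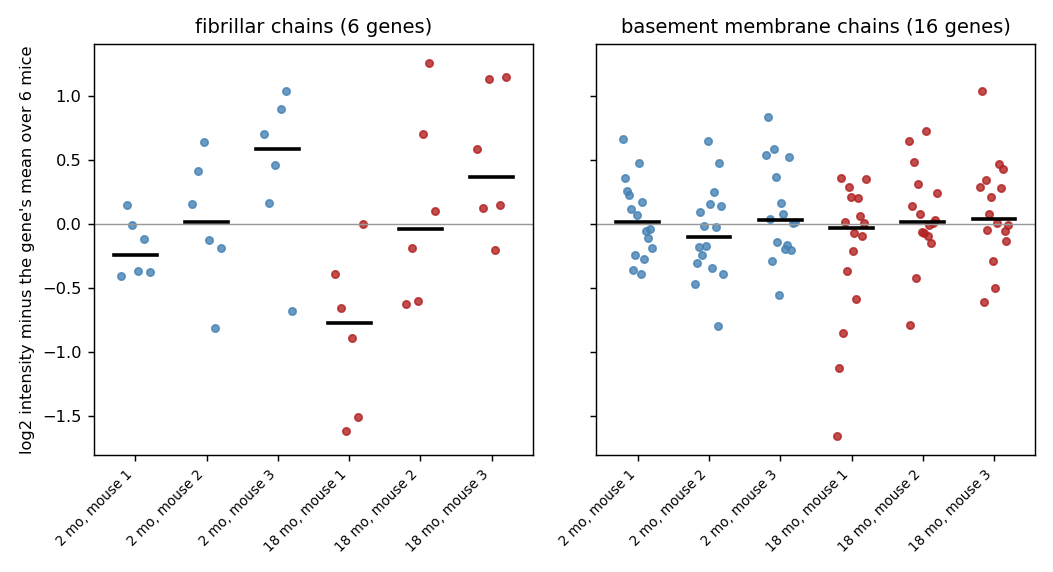
Log2 intensity of each tested gene minus that gene's mean over the 6 mice (y axis), for 6 fibrillar chains (left) and 16 basement membrane chains (right), by mouse, with the class median as a bar. The fibrillar median runs from -0.77 in mouse 1 of the 18-month group to 0.58 in mouse 3 of the 2-month group, while the basement membrane median stays between -0.10 and 0.04.

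Within the basement membrane class, all 5 tested collagen IV chains were below 0 on their brightest probe sets, with a median of -0.30 and differences from -0.59 to -0.02. With the probe sets of each gene averaged, Col4a4 and Col4a5 were above 0. Col4a1 and Col4a2 encode the chains of the common network found in nearly every basement membrane. Col4a1 had 5.10, 7.41 and 7.05 in the aged mice and 7.42, 6.29 and 7.30 in the young mice, a difference of -0.48 ± 0.64 (SE; limma adjusted p = 0.905). Col4a2 had 4.74, 5.07 and 6.90 in the aged mice and 6.22, 5.56 and 6.70 in the young mice, a difference of -0.59 ± 0.60 (SE; limma adjusted p = 0.867). The ages overlapped in both genes, and mouse 1 of the 18-month group was the lowest of the 6 in both. Without it Col4a1 turned to 0.23 and Col4a2 came to -0.17. In RefSeq these 2 genes start head to head on chromosome 8, on opposite strands, with first bases at 11312805 (Col4a2, + strand) and 11312826 (Col4a1, - strand) in build GRCm38.p6.

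Col4a3, Col4a4 and Col4a5 encode the chains of the network best known from the kidney filter. Col4a3 had 8.00, 7.78 and 7.03 in the aged mice and 7.90, 7.46 and 7.68 in the young mice, a difference of -0.08 ± 0.29 (SE; 95% interval -0.77 to 0.62). Col4a4 had 8.33, 9.67 and 9.53 in the aged mice and 9.41, 9.28 and 8.89 in the young mice, a difference of -0.02 ± 0.38 (SE). Its other probe sets past the filter gave 0.11 and 0.39, with overlapping ages. Col4a3 and Col4a4 each changed sign when a single mouse was left out. Col4a5 had 8.22, 7.78 and 8.15 in the aged mice and 8.32, 7.96 and 8.79 in the young mice, a difference of -0.30 ± 0.26 (SE; limma adjusted p = 0.848). Its second probe set went the other way, by 0.59, with 7.23, 7.60 and 6.63 in the aged against 6.42, 6.87 and 6.41 in the young mice. All 3 genes had overlapping ages on the probe sets used for the test.

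Among the 7 tested laminin genes, 4 were higher and 3 lower at 18 months, with a median of 0.01. Lamb1, the β1 chain found in most laminins, had 10.05, 10.19 and 9.76 in the aged mice and 10.74, 10.42 and 10.43 in the young mice. The ages did not overlap, with means of 10.00 ± 0.22 and 10.53 ± 0.18 (SD, n = 3 each). The difference was -0.53 ± 0.19 (SE), a 1.44-fold lower level, with a 95% interval from -0.99 to -0.06 and a limma adjusted p of 0.682. Other probe sets of Lamb1 gave -0.08 and -0.29, and the mean over its probe sets gave -0.26. Lamb2, the β2 chain that takes the place of β1 at vessels, synapses and the kidney filter, was measured in the other direction. It had 7.29, 8.09 and 7.37 in the aged mice and 6.97, 7.02 and 7.44 in the young mice, a difference of 0.44 ± 0.27 (SE; limma adjusted p = 0.792) with overlapping ages.

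The upstream window of Lamb1 is shown as the laminin with the lowest unadjusted p, on the + strand at chr12:31265043-31265292, with the same marking of motifs. It held 1 CCAAT and 2 GC box matches.
Lamb1: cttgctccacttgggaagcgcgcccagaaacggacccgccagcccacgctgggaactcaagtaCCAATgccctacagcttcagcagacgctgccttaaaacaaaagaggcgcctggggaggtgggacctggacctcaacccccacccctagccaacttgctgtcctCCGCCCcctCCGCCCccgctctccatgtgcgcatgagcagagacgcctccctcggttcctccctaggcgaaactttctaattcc

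The α chains carry the sites that cell receptors bind. Lama4, the chain of endothelial laminin, had 5.21, 5.00 and 5.13 in the aged mice and 4.68, 4.75 and 4.78 in the young mice. The aged mice were all above the young ones, with a difference of 0.38 ± 0.16 (SE), 1.30-fold (limma adjusted p = 0.708). Its mean of 4.92 lay barely over the filter and passed it through the aged mice (5.11 ± 0.11), the young mice being under it (4.74 ± 0.05; SD, n = 3 each), so that the difference is given as a description. Under quantile normalization it fell short of the filter. Lama5, the chain of epithelial and mature vessel basement membranes, had 9.11, 8.84 and 8.61 in the aged mice and 8.97, 9.55 and 8.35 in the young mice. Its ages overlapped (-0.11 ± 0.33, SE), and a second probe set gave 0.35. Lama2, the chain of muscle and stromal laminin, differed by 0.01 ± 0.27 (SE), its values lying from 5.82 to 6.50 at 18 months and from 5.83 to 6.55 at 2 months.

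The γ1 chain Lamc1 is shared by nearly all laminins. It had 7.12, 7.61 and 8.18 in the aged mice and 7.88, 7.96 and 7.51 in the young mice, and its ages overlapped (-0.15 ± 0.30, SE). Lamc3, a γ3 chain of restricted distribution, had 5.21, 5.00 and 5.29 in the aged mice and 4.73, 4.98 and 4.84 in the young mice. These ages did not overlap, though the nearest pair was 0.02 apart. Lamc3 also passed the filter through the aged mice, with a mean of 5.17 against 4.85 in the young mice, which is under it. The fitted difference of 0.32 ± 0.17 (SE; limma adjusted p = 0.773) is a description for that reason, and a second probe set gave -0.06.

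All 4 linkers (the nidogens, perlecan and agrin) passed the filter, 2 above 0 and 2 below, with a median of 0.08. Hspg2 had 8.56, 8.58 and 8.42 in the aged mice and 8.51, 8.69 and 8.56 in the young mice. This was among the narrower intervals of the class, -0.06 ± 0.16 (SE) with a 95% interval from -0.44 to 0.31. Its dimmer second probe set differed by 0.78, with 7.51, 6.93 and 7.17 at 18 months against 7.11, 6.21 and 5.97. Nid2 had 9.33, 9.43 and 9.37 in the aged mice and 9.32, 9.90 and 9.22 in the young mice, and the ages overlapped (-0.10 ± 0.22, SE). Nid1 ran from 5.50 to 6.08 at 18 months and from 4.85 to 6.17 at 2 months, a difference of 0.23 ± 0.36 (SE). Agrn had 8.32, 8.21 and 7.96 in the aged mice and 7.78, 7.58 and 7.99 in the young mice. Of its aged mice 2 lay above every young mouse, and the difference of 0.38 ± 0.19 (SE) did not pass the test (limma adjusted p = 0.758). A dimmer probe set of Agrn gave -0.38.

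Col15a1 and Col18a1 encode the multiplexins, collagens XV and XVIII, which sit in or beside basement membranes, carry sugar chains and release the fragments known as restin and endostatin. Col18a1 was higher in every aged mouse. Its log2 intensity was 9.38, 9.21 and 9.47 at 18 months, a mean of 9.35 ± 0.13 (SD, n = 3), and 8.22, 8.91 and 8.38 at 2 months, a mean of 8.51 ± 0.36 (SD, n = 3). The lowest aged mouse was 0.30 above the highest young one. The difference was 0.85 ± 0.23 (SE), 1.80-fold, with a 95% interval from 0.30 to 1.39, and did not pass the test over all genes (limma adjusted p = 0.568). A second probe set gave 0.92 and also kept the ages apart, with 8.94, 9.55 and 9.35 against 8.24, 8.64 and 8.20. Across 16 alternative fits, leaving out each mouse among them, the difference of Col18a1 stayed between 0.70 and 1.05, and its unadjusted p was under 0.05 in all 16. These fits reuse the same mice and several return the same difference, so that they are not independent support. For the other members at an unadjusted p under 0.05 the counts were 14 of 15 (Col25a1), 10 of 16 (Lamb1), 6 of 16 (Col27a1), 6 of 16 (Col8a1) and 3 of 13 (Lama4). The share over all genes was not taken. Col15a1 had 5.75, 4.94 and 6.29 in the aged mice and 5.13, 5.05 and 5.20 in the young mice. Its ages overlapped through mouse 2 of the 18-month group, and the difference was 0.53 ± 0.34 (SE; limma adjusted p = 0.802).

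Col18a1 is transcribed from separate starts that give a short and longer forms of the protein, and the values above do not say which form was measured. Both upstream windows that RefSeq gives are shown, on the - strand, the first at chr10:77166531-77166780 and the second, inside the gene, at chr10:77113706-77113955, with motifs marked as before.
Col18a1, first start: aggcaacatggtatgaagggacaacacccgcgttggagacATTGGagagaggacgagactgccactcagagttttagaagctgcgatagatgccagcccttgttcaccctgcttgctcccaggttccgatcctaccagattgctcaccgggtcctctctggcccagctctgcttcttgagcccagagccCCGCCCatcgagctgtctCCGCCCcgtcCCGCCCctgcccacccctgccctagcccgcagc
Col18a1, second start: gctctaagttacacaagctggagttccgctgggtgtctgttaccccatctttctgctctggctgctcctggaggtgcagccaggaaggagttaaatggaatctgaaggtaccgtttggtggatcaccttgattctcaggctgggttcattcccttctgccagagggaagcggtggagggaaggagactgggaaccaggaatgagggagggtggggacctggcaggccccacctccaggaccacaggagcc
The first window held 1 CCAAT and 3 GC box matches and no TATAAA, and the second held none of the 3 motifs.

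**Figure D3:**
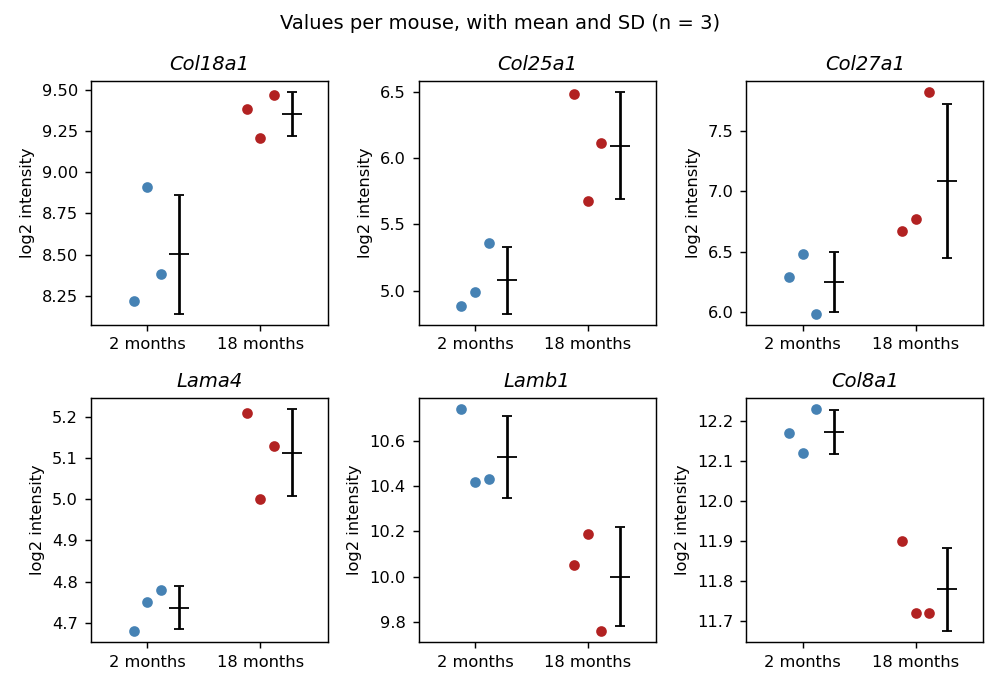
Log2 intensity (y axis) of the 6 members at an unadjusted p under 0.05, each point a mouse, with the mean and SD of each age (n = 3) beside the points. Col18a1, Col25a1, Col27a1 and Lama4 are higher in all 3 mice at 18 months and Lamb1 and Col8a1 lower in all 3, and each panel has its own axis range. None passed the test adjusted over all genes, and the young mice of Lama4 lie under the filter of 4.92.

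Collagen VI forms fine beaded filaments next to basement membranes and is made by fibroblasts, mural and meningeal cells. Col6a1 had the largest SE of the 37 tested members. It had 5.18, 6.75 and 9.29 in the aged mice and 5.56, 5.24 and 6.66 in the young mice, a difference of 1.25 ± 1.00 (SE; limma adjusted p = 0.834). Col6a2 had 6.38, 6.21 and 7.33 in the aged mice and 5.81, 4.21 and 7.05 in the young mice, a difference of 0.95 ± 0.71 (SE; limma adjusted p = 0.830). In both genes mouse 3 of the 18-month group was the highest of the 6, mouse 2 of the 2-month group was among the 2 lowest, and the ages overlapped. Without these 2 mice the differences were -0.15 and -0.14. Leaving out mouse 3 of the 18-month group alone gave 0.14 for Col6a1, and leaving out mouse 1 of that group gave 2.20. Col6a3, Col6a4 and Col6a5 lay under the filter.

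Collagens VIII and X are network collagens that form lattices, and collagen VIII is known from the corneal endothelial sheet and from vessels. Col8a1 had 11.90, 11.72 and 11.72 in the aged mice and 12.17, 12.12 and 12.23 in the young mice on its brightest probe set. Every aged mouse was below every young one, with a difference of -0.39 ± 0.16 (SE), 1.31-fold, and a limma adjusted p of 0.706. A second probe set also kept the ages apart but with the opposite sign, 10.42, 10.76 and 10.55 at 18 months against 10.25, 10.36 and 10.14, a difference of 0.32. The third gave 0.01, and the mean of the 3 gave -0.02. No direction can therefore be read for Col8a1. Its partner Col8a2, with 1 probe set, had 11.66, 11.49 and 11.71 in the aged mice and 11.43, 11.27 and 11.66 in the young mice, overlapping ages and a difference of 0.17 ± 0.18 (SE). Col10a1 differed by -0.06 ± 0.15 (SE).

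Col25a1 encodes a membrane collagen made in neurons, whose shed part is known from amyloid plaques. It had 6.49, 5.68 and 6.12 at 18 months, a mean of 6.10 ± 0.40 (SD, n = 3), and 4.88, 4.99 and 5.36 at 2 months, a mean of 5.08 ± 0.25 (SD, n = 3). The ages did not overlap, and the difference of 1.02 ± 0.26 (SE), 2.03-fold, was the largest of the 6 members at an unadjusted p under 0.05 (limma adjusted p = 0.562). A second probe set, near the filter, gave -0.04, with values from 5.00 to 5.19 at 18 months and from 5.03 to 5.19 at 2 months. The summed linear intensity of 12 neuron markers was 2636, 5441 and 9203 at 18 months and 3968, 2577 and 8450 at 2 months. With the mean of the neuron markers as a covariate the Col25a1 difference was 1.02. The neuron markers had a median age difference of 0.19, small beside their spread between mice (pooled SD 0.832). Such a covariate could hardly move an age difference, so the part of neuronal RNA in that of Col25a1 was not tested. Col13a1, a muscle and synapse collagen, differed by -0.45 ± 0.37 (SE) with overlapping ages. Col17a1 and Col23a1 lay under the filter. The Col25a1 window is shown as that of the member with the lowest unadjusted p, on the + strand at chr3:130180595-130180844, and it held 1 CCAAT and 2 GC box matches.
Col25a1: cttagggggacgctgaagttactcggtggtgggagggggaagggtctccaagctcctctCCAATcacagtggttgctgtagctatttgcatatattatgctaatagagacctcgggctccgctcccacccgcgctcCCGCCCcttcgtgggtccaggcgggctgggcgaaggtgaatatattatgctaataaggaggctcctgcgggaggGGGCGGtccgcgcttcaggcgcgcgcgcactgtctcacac

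The fibril-associated collagens (FACIT) sit on the surface of fibrils. All 6 tested genes were below 0, between -0.69 and -0.09 with a median of -0.14, and in none did the ages separate. Col9a3, one chain of collagen IX, had 11.58, 11.51 and 11.55 in the aged mice and 11.67, 11.53 and 12.00 in the young mice, a difference of -0.19 ± 0.18 (SE; limma adjusted p = 0.862). Its second probe set gave 0.23. The partner chains Col9a1 and Col9a2, needed for the collagen IX molecule known from cartilage, had means of 3.27 and 4.37, both under the highest bacterial control. Col14a1, which binds fibril surfaces through decorin, differed by -0.69 ± 0.55 (SE), with 6.56, 7.18 and 7.54 in the aged mice and 7.26, 7.06 and 9.03 in the young mice. Mouse 3 of the 2-month group stood above the rest, and without it the difference was -0.07. Col16a1, Col19a1, Col20a1 and Col22a1 lay between -0.18 and -0.09. Col12a1 was under the filter, as were Col7a1 and Col26a1, which belong to none of these classes.

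For 21 members, 2 or more probe sets passed the filter, and each reads a different stretch of the transcript. In 11 the probe sets had 1 sign and in 10 they had opposite signs. The gap between the lowest and highest difference was above 0.5 in 8 members, from 0.56 (Col14a1) to 1.06 (Col25a1). The smallest gaps were 0.04 for Col1a2, 0.07 for Col18a1 and 0.08 for Col4a3. Of the 6 members at an unadjusted p under 0.05, Col18a1 was the one whose other probe set also separated the ages in the same direction. Lama4 had 1 probe set past the filter, and for Lamb1, Col25a1 and Col27a1 the others overlapped between the ages.

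**Figure D4:**
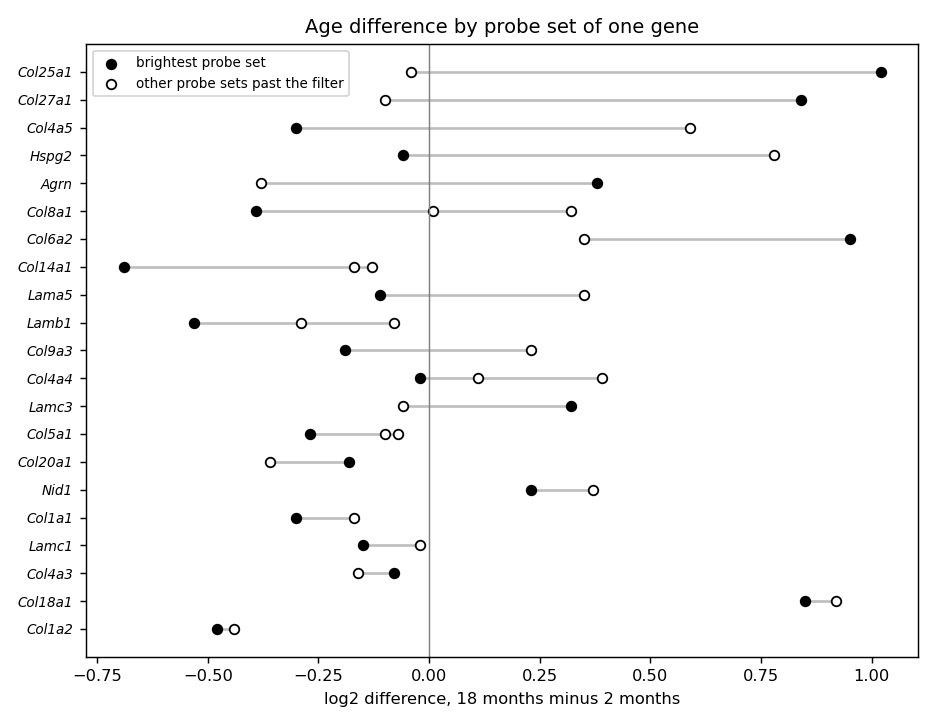
Difference in log2 intensity (18 months minus 2 months, x axis) for each probe set past the filter, for the 21 members with at least 2, ordered by the gap between the lowest and the highest. The filled point is the brightest probe set, used in the test, and open points are the others. Col18a1 and Col1a2 have points close together, while Col25a1, Col27a1, Col4a5, Hspg2, Agrn and Col8a1 reach across 0.

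Genes that make, trim and bind these chains were taken from lists, chosen with earlier results of these data known. Over the 5 lists, 60 of 83 genes were tested, 27 above 0 and 33 below, with a median of -0.04. None passed the adjusted test, and at an unadjusted p under 0.05 there were 1 higher and 7 lower, that is 13.3% of the 60 against 7.05% of all genes.

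For folding and modification inside the cell, 19 genes were tested, 10 above and 9 below 0. Creb3l1, a transcription factor that switches on collagen secretion genes, had 7.74, 7.49 and 7.36 in the aged mice and 7.99, 8.34 and 8.32 in the young mice. The aged mice lay below the young ones, by -0.68 ± 0.19 (SE; limma adjusted p = 0.599). Plod1 and Plod3, lysyl hydroxylases that prepare crosslinks, differed by -0.55 ± 0.24 and 0.37 ± 0.21 (SE) with overlapping ages.

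For trimming and crosslinking outside the cell, 8 genes were tested, 1 above and 7 below 0, with a median of -0.34. Tll1, a protease that removes the C-terminal propeptide, had 4.93, 5.35 and 2.84 in the aged mice and 6.42, 5.93 and 6.39 in the young mice. Its aged mean of 4.37 lay under the filter and under the highest bacterial control (4.51), so that it passed the filter through the young mice and no size of the difference is given. Tll1 is 1 of the 7 lower genes counted over the lists. Pcolce, which enhances that cleavage, had 12.04, 12.20 and 12.06 in the aged mice and 12.79, 12.41 and 12.26 in the young mice, a difference of -0.39 ± 0.19 (SE; limma adjusted p = 0.758). In both genes every aged mouse was below every young one. Tgm2, a transglutaminase that crosslinks matrix, differed by -0.66 ± 0.31 (SE) with overlapping ages.

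Of the fibril organisers 13 were tested, 5 above and 8 below 0. At an unadjusted p under 0.05 in the limma fit there were 3, all lower. That is 23.1% of the 13, against 7.05% of all genes in either direction and 3.03% lower. The 3 were Postn (periostin, a matricellular protein of collagen-rich tissue), Ogn and Dcn (small proteoglycans on fibrils). Ogn had 10.25, 9.64 and 10.02 in the aged mice and 10.80, 10.35 and 11.17 in the young mice, a difference of -0.80 ± 0.27 (SE). Dcn had 7.91, 7.89 and 8.59 in the aged mice and 8.72, 9.10 and 8.74 in the young mice, a difference of -0.72 ± 0.25 (SE). Postn differed by -1.30 ± 0.20 (SE). The ages were apart in all 3, and the limma adjusted p values were 0.672, 0.672 and 0.228.

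Among the receptors 14 were tested, 6 above and 8 below 0. Itgb4, the integrin β4 chain that pairs with α6 to hold epithelia to laminin, had 5.92, 6.15 and 6.64 in the aged mice and 5.09, 5.22 and 4.85 in the young mice, a difference of 1.19 ± 0.24 (SE; limma adjusted p = 0.373). Itga1, the collagen receptor chain best known for binding collagen IV, had 5.98, 4.59 and 6.25 against 6.76, 7.30 and 6.80, a difference of -1.35 ± 0.45 (SE; limma adjusted p = 0.663). Sdc1, a heparan sulfate proteoglycan of epithelial surfaces, had 6.61, 6.20 and 6.67 against 7.27, 7.82 and 7.32, a difference of -0.98 ± 0.23 (SE; limma adjusted p = 0.507). The ages were apart in Itgb4, Itga1 and Sdc1.

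Of the breakdown and uptake genes 6 were tested, 5 above and 1 below 0. At an unadjusted p under 0.05 in the limma fit there were 0, against 7.05% of all genes. Mmp14, a membrane collagenase, had 8.32, 8.25 and 8.38 in the aged mice and 7.31, 8.24 and 7.51 in the young mice, a difference of 0.63 ± 0.27 (SE; limma adjusted p = 0.710). The ages were apart by 0.01 at the nearest pair. Mmp2, a gelatinase that MMP14 activates, differed by 0.15 ± 0.30 (SE), and Mrc2, the receptor that takes up collagen fragments, by -0.39 ± 0.27 (SE).

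Markers of the cells that make these chains were set beside the results as summed linear intensities per mouse. The fibroblast sum, over 11 genes of which 9 were tested (3 above and 6 below 0), was 3392 to 3862 at 18 months and 3803 to 4627 at 2 months. Its genes lay on both sides of 0, with Pdgfra at 1.95 ± 0.22 (SE) and Ogn and Dcn lower as above. Dcn, Lum, Dpt, Ogn and Fbln1 are also among the fibril organisers, and Ogn was the brightest gene of the fibroblast list (mean 10.37). The fibroblast sum is therefore not independent of the fibril organiser results. The meningeal sum was 11728 to 12346 against 11387 to 12363, the endothelial sum 905 to 1244 against 920 to 1170 and the mural sum 565 to 1060 against 722 to 753. The meningeal sum mostly followed Igfbp2 and Slc13a4, with mean log2 intensities of 13.04 and 11.51. The other genes of that list had means from 5.27 (Aldh1a2) to 6.58 (Slc47a1) and hardly count in it. The epithelial sum, which checks the labelled tissue, was 65681 to 66628 against 65333 to 68057, with all 10 genes found on the array past the filter. In the fibroblast list 2 genes were under the highest bacterial control, in the endothelial list 3 and in the mural list 4. None of these 5 sums separated the ages.

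The neuron sum given above was low in mouse 1 of the 18-month group, where the fibrillar and collagen IV medians were lowest, and high in mouse 3 of each age, where they were highest. Mouse 2 of the 2-month group, with the lowest neuron sum, had class medians of 0.02 and -0.24. With the neuron level as a covariate the fibrillar median was -0.30 and the basement membrane median -0.07, against -0.28 and -0.07 without it. The neuron level was much alike at the 2 ages, so that this covariate could hardly move the medians. The astrocyte sum was 1830 to 4093 against 1393 to 3615 and the oligodendrocyte sum 2692 to 7027 against 1953 to 7413. Sums that separated the ages were ependymal, lower at 18 months (3830 to 4974 against 5133 to 9620), and pituitary, higher (869 to 2042 against 279 to 383). The pituitary separation leaned on Gh, with 10.40, 10.18 and 9.08 in the aged mice and 4.65, 5.63 and 4.44 in the young mice. Gh passed the filter through the aged mice, with a mean of 4.91 in the young mice. Of the 7 pituitary genes on the array 4 lay under the filter, and no sum without Gh was taken. The ependymal separation leaned on Ak7, which was 12.39 in mouse 2 of the 2-month group against 9.17 and 8.99 in the other young mice. In the aged mice Ak7 was 8.59, 8.63 and 8.33. All 7 tested ependymal genes were below 0, the nearest to it being Dynlrb2 at -0.02, and no sum without Ak7 was taken. Fam183b, among the 7, had a mean of 4.55 in the aged mice, under the filter. It passed through the young mice (7.36), so that it had to differ and lends no support to that count. The macrophage sum overlapped (3229 to 4579 against 1935 to 3936). The part of these other cells in the differences of the chain genes was not tested, and the neuron covariate could not decide it for neurons.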

How the data were processed

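Total RNA of 6 plexus samples was amplified with a Nugen Pico kit and hybridised to Affymetrix arrays, per the labels' protocols. The authors deposited 1 table of intensity values for 45101 probe sets, made with RMA per the submitters' processing notes (version not given in the sources used here). The values ran from 2.47 to 26820.67 and were taken to be linear, so their log2 was used. RMA shares information across arrays and compresses dim signals. The number of arrays limits the precision.

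Probe sets with 1 gene symbol in the platform annotation (34945, with 932 of several and 9160 of none left out) were used, and the brightest per gene stood for it. Genes with a mean log2 value at or above the 40th percentile (4.92) were tested with limma (3.58.1, under R 4.3.3; 18 months minus 2 months, two-sided, no covariate), adjusted by Benjamini-Hochberg over all 12681 genes with a threshold of 0.05. The moderated test had 6.61 degrees of freedom. The fit was also run on simulated data that took their means and variances from these arrays, and its outcome is not given here. An exact permutation test of 3 mice against 3 cannot reach 0.05 and was not used.

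The members, gene lists and tests were chosen with earlier results of these data known. The rule gave a value per mouse for fibrillar and basement membrane members with a mean at or above the 60th percentile (6.36), members at an unadjusted p under 0.05 and the brightest of each other class, and named the 3 genes with the smallest p of each pathway list. Other members and single marker genes were named after their values were seen. Upstream sequences came from a RefSeq table (GRCm38.p6), matched by symbol.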

Additional observations from a re-analysis of the deposited data

How the results depend on the processing

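Besides the reported fit, 17 alternatives were run. No member passed an adjusted p of 0.05 under any of them, and over all genes 0 passed in the reported fit (894 at an unadjusted p under 0.05), 4 with a 60th percentile filter (3 higher, 1 lower), 5 with the mean of all probe sets (5 higher), 5 with arrays centred on their medians (4 higher, 1 lower), 4 with array weights (3 higher, 1 lower), 1 with the neuron covariate and 0 without any single mouse. Members at an unadjusted p under 0.05, 6 as reported, were 2 with the mean of all probe sets, 3 without mouse 3 of the 18-month group and mouse 2 of the 2-month group, and 2 to 5 without single mice. With the replicate block there were 2. The share of all genes at an unadjusted p under 0.05 was not taken under these settings. The labels do not say that shared replicate numbers pair the mice. Correlations of same-numbered deviations were -0.0154, 0.0192 and 0.168, and those of differently numbered ones ran from -0.154 to 0.139. Deviations of 3 mice sum to 0 within an age, so these correlations cannot decide whether the mice were paired. The block result is therefore given without a reading. The fibrillar median ran from -0.56 to 0.05 without single mice and was -0.58 without both mice. The basement membrane median came to 0.00 when probe sets were averaged, to 0.00 without both mice, and -0.13 to 0.15 without single mice. Of 776 alternative values for 52 named genes, 736 kept their direction and 40 did not. Fits that changed only the filter or added the replicate block return the reported difference and could not turn a direction. The 736 is therefore no measure of stability. With the mean of all probe sets Col4a4 turned to 0.16, Col4a5 to 0.14, Lama5 to 0.24 and Hspg2 to 0.36. Without both mice Col4a3 turned to 0.10, Lama5 to 0.31, Nid2 to 0.11, Hspg2 to 0.04, Col6a1 to -0.15, Col6a2 to -0.14, Lama2 to -0.03, Nid1 to -0.28 and Col22a1 to 0.04. With array weights Col5a2 turned to 0.01 and Col19a1 to 0.07. Lama2 turned to -0.01 with quantile normalization and to -0.01 with centred arrays. Without single mice or both mice the differences spanned 0 in Col5a1 (-0.69 to 0.11), Col4a1 (-1.11 to 0.23), Col4a3 (-0.28 to 0.21), Col4a4 (-0.27 to 0.40), Lama5 (-0.41 to 0.31), Lamc1 (-0.42 to 0.11), Nid2 (-0.23 to 0.11), Col5a2 (-0.72 to 0.67), Lama2 (-0.17 to 0.19), Nid1 (-0.28 to 0.54), Col16a1 (-0.24 to 0.10), Col19a1 (-0.54 to 0.31), Col22a1 (-0.17 to 0.04), Hspg2 (-0.10 to 0.04), Col6a1 (-0.15 to 2.20), Col6a2 (-0.14 to 1.63) and Mmp2 (-0.05 to 0.51). The cause was not tested beyond what each setting leaves out.

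With 3 mice in each age, differences smaller than the intervals given cannot be told from the spread between mice, and signals near the bacterial controls add to it. Where probe sets of a gene went in opposite directions, the choice of probe set set the sign.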
